A study of Mus musculus with 54 samples.

Results

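The 150 probes described here were selected on their enrichment in LIN28A- segments of P21 control testes, from 20175 probes in all (0.743%). They were chosen by the ratio of 2 segments of the same tissue. For each of the 2 control animals, the counts of its 3 sections were summed for LIN28A- and for LIN28A+ segments and scaled to CPM (counts relative to 1e6 counts of the sum), and the log2 ratio of LIN28A- CPM + 5 over LIN28A+ CPM + 5 was taken. Probes were ranked by the smaller of the ratios of the 2 animals, and the first 150 were kept. The values in these control libraries are therefore a description, and the tests below use libraries that the choice did not use, apart from the alternatives named as using them.

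GeoMx WTA hybridizes tagged probes to a fixed testis section and releases the tags with light from chosen cells. LIN28A+ segments (LIN28A+DDX4+SYTO13+) were outlined to hold undifferentiated spermatogonia, and LIN28A- segments (LIN28A-DDX4+SYTO13+) to hold the other germ cells. Controls were heterozygous (Blimp1-CreTg; Cbfb fl/+) and conditional knockouts (cKO) were Blimp1-CreTg; Cbfb fl/fl, so that both genotypes carried the Cre transgene and controls had 1 floxed allele. Blimp1-Cre acts in the germline from before birth, and activity in somatic tissues outside the testis has also been reported. Each genotype gave 6 LIN28A- and 6 LIN28A+ libraries at P21, from 3 sections of each of 2 animals, and 9 LIN28A+ libraries at P6, from 3 sections of each of 3 animals. From P21 cKO testes, regions were also placed on tubules with only spermatogonia (Spg-only, 3 LIN28A+ libraries) and on tubules in which maturation was disrupted (Diff, 4 LIN28A+ and 4 LIN28A- libraries). The animals of these regions are not given, and 1 further P6 library is labelled as background.

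Male germ cells mature from the basement membrane of the seminiferous tubule towards its lumen. Undifferentiated spermatogonia, which carry the RNA-binding protein LIN28A, give rise under retinoic acid to differentiating spermatogonia, these to spermatocytes that pass through meiosis, and these to spermatids. DDX4 marks germ cells at all of these steps. In the juvenile testis the first cohort of cells moves through these steps together, so that the most mature germ cells present change with age.

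The libraries identify each probe by an RTS number, and none of these numbers was found in the gene tables used here (0 matches). No probe is therefore named by gene, markers of cell types were not applied, the target gene was not checked in cKO, and the cell content of the segments was not tested against markers. What can be shown of a probe is its readout barcode, the 12-letter tag that was sequenced and counted. It is not the sequence that binds the transcript, and no letters are capitalised since no stretch of a tag carries biological meaning. The tags below identify the 6 probes on which most of the values rest.
RTS0067559: aggatacttaga
RTS0069994: cactgaaggaca
RTS0075843: ctcttcaccgtt
RTS0068362: tgagagcgttag
RTS0073824: ggttcggctcgt
RTS0064711: tctggttcgcac
RTS0069994 and RTS0067559 led the ranking, RTS0075843 and RTS0067559 had the smallest p in cKO, RTS0068362 was among the members with the lowest p between Spg-only and Diff tubules, RTS0073824 was the probe with a fitted value below 0 in Diff tubules, and RTS0064711 was the probe that missed the threshold in cKO. Members' tags held a mean of 6.03 G or C letters against 5.97 for all tags. The nearest other tag differed at 2 letters for 91 members and at 3 for 59, where the pipeline allows 1 mismatch. Consecutive RTS numbers occurred in 8 pairs of members, and the tags within such a pair differed at 6 to 11 letters. The identifiers' order carries no stated meaning.

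Total counts per library ranged from 53821 in the background region to 7085244 in a LIN28A- control section. At P21, LIN28A- sections held 2096394 to 7085244 counts and LIN28A+ sections 160230 to 837610, so values of single probes were less precise in LIN28A+. The Diff LIN28A- libraries held 231410 to 738575 and the Spg-only libraries 76337 to 178737. P6 and P21 tissue lay on different slides, and the file headers name a plate and a flow cell for each age, although the study's methods describe pooled libraries in a shared lane. Age, slide and plate cannot be told apart. At P21 the LIN28A+ libraries of control sections 1.2 and 1.3 (animal 1), the closest pair of their group, agreed within counting error, with a ratio of chi-square to degrees of freedom of 1.01. Sections were summed per animal, so such pairs entered n once. Other pairs of that group reached 1.73, with a group median of 1.27. The LIN28A- control sections, which the choice used, ran from 1.42 to 5.85 with a median of 2.95, beyond counting error.

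In the control animals the 150 probes took a larger share of counts in LIN28A- than in LIN28A+ segments, which is what they were chosen for. Their share of all counts was 3.33% to 4.11% in the 3 LIN28A- sections of animal 1 and 2.24% to 2.93% in those of animal 2. In the LIN28A+ sections it was 1.04% to 1.42%, against an even share of 0.743%. RTS0069994, first in the ranking, had 769, 589 and 713 CPM in LIN28A- sections of control animal 1 and 452, 305 and 395 CPM in those of animal 2. In LIN28A+ sections it had 166, 95.8 and 89.8 CPM in animal 1 and 112, 87.5 and 90.5 CPM in animal 2. RTS0067559, second, was the more abundant, with 2123, 1685 and 2148 CPM in LIN28A- sections of animal 1 and 1026, 683 and 910 CPM in animal 2. Every LIN28A- value of both probes lay above every LIN28A+ value, and in LIN28A- sections animal 1 was above animal 2.

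The limit of the ranking fell on a continuous range of ratios. Just inside it, RTS0070935 had log2 ratios of 0.93 and 1.03 in the 2 animals and RTS0071719 1.20 and 0.92. Just outside, RTS0065832 had 0.94 and 0.92 and RTS0063017 1.11 and 0.91. Over the 150 probes the median ratio was 1.37 in animal 1 and 1.13 in animal 2, where the medians of all probes were -0.03 and -0.04. A ratio above 1 was found for 143 members in animal 1 (95.3%) and 116 in animal 2 (77.3%), as the choice implies. Of all probes 1.61% reached it in animal 1 and 0.62% in animal 2. The probes spanned levels. By mean CPM in control LIN28A- sums their ranks ran from 11 to 2615, with a median of 327.5, and 31 of them stood among the 150 most abundant probes.

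**Figure D1:**
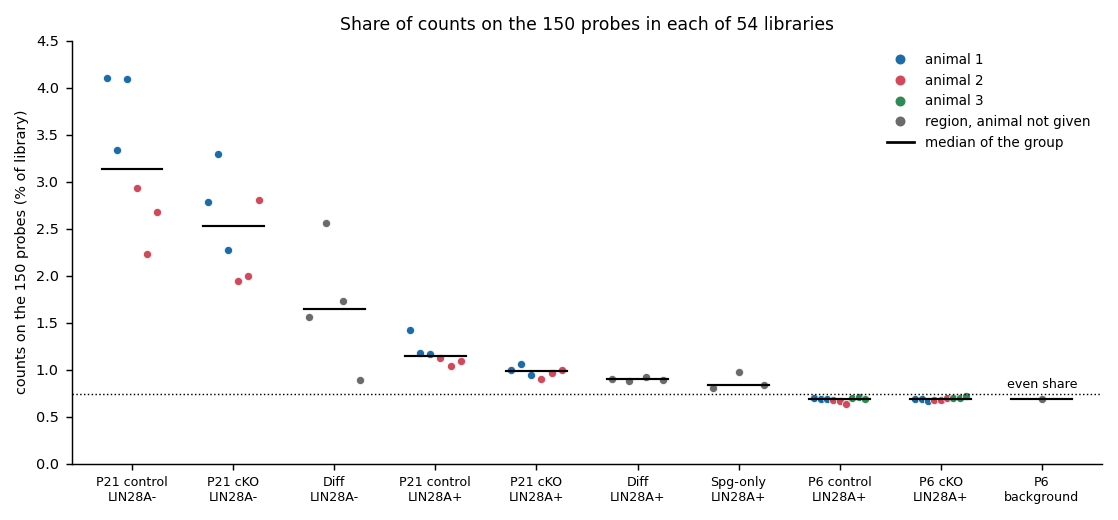
Share of each library's counts (percent) that fell on the 150 probes, by group; points are libraries coloured by animal, bars are group medians, and the dotted line is the even share of 0.743%. LIN28A- libraries of control and cKO lie between 1.94% and 4.11%, Diff region 4 lies at 0.890% with the LIN28A+ libraries, and all P6 libraries lie below the dotted line.

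In P21 cKO testes nearly all of the 150 probes were again higher in LIN28A- than in LIN28A+ segments. In edgeR's quasi-likelihood test on the sums of 2 cKO animals, with the animal as a block, 149 of 150 were called higher and 0 lower at an adjusted p of 0.05, where 4.61% of all 20175 probes were called higher. The median fitted log2 fold change of the members was 1.21, or 2.31-fold, against 0.01 over all probes, and their values ran from 0.42 to 2.67. Each value rests on 2 animals, of which the 3 sections are technical replicates. With so few sums, the SEs and p-values lean on a variance shared over all probes. They are a poor measure of the spread between animals. The 149 made up 16.0% of the 931 probes called higher.

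RTS0067559 had 922, 1255 and 608 CPM in the LIN28A- sections of cKO animal 1 and 531, 591 and 959 CPM in those of animal 2. Its LIN28A+ sections held 193, 179 and 134 CPM in animal 1 and 115, 155 and 180 CPM in animal 2. The groups did not overlap, and the log2 fold change was 2.43 (SE 0.09, edgeR adjusted p = 1.22e-30). RTS0075843 had 461 to 736 CPM in LIN28A- sections and 121 to 169 CPM in LIN28A+ sections of cKO, with a log2 fold change of 2.10 (SE 0.10, edgeR adjusted p = 4.11e-26). RTS0069994 had 260 to 585 CPM against 45.1 to 86.4 CPM and the highest fitted change of all members, 2.67 (SE 0.13, edgeR adjusted p = 4.11e-26). In fits with cKO animal 1 or 2 left out its value was 2.46 or 2.97, both further from 2.67 than that SE.

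The member that missed the threshold, RTS0064711, was named after its values were seen. It had 49.4 to 73.0 CPM in the LIN28A- sections of cKO and 40.1 to 52.5 CPM in the LIN28A+ sections. Its log2 fold change was 0.42 (SE 0.15, edgeR adjusted p = 0.0878), and its groups overlapped. In controls it had 60.3 to 93.1 CPM in LIN28A- and 30.7 to 46.5 CPM in LIN28A+ sections. Its LIN28A- range lay lower in cKO and its LIN28A+ range higher, with overlap in both, and neither was tested because the choice used the controls.

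The order of the probes carried over in part. Over the 150 probes, the control ratio and the cKO log2 fold change had a Pearson r of 0.70 and a Spearman rho of 0.62, across probes that share libraries, so no p is given. The same ranking run on the 2 cKO animals placed 109 of the members in its first 150 and 145 in its first 500, with a median rank of 98 and a worst rank of 1321. Of the 150 most abundant probes in control LIN28A- segments, 119 were not members. Of these, 24 were called higher and 11 lower in cKO, and their median log2 fold change was 0.04. Over all 20175 probes, 931 were called higher and 482 lower. The 119 exclude the members, which were chosen by their control ratio, so nothing about abundance is read from them.

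**Figure D2:**
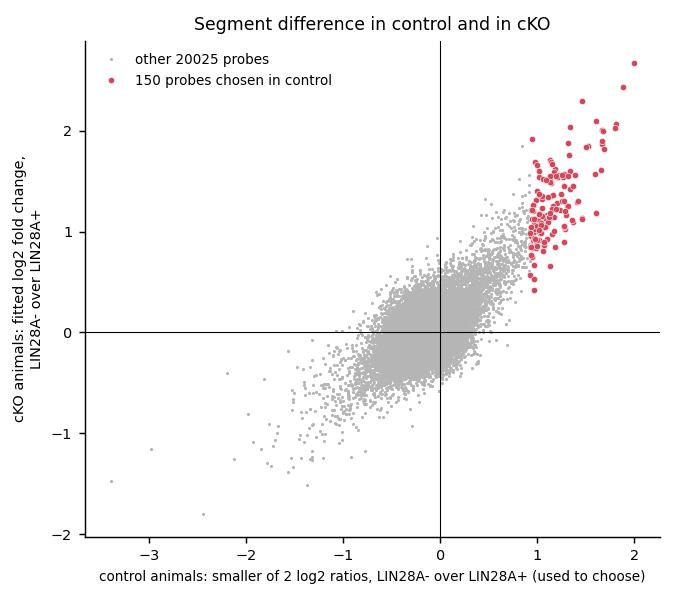
Each point is a probe: the smaller log2 ratio of the 2 control animals (x axis, used to choose the 150 probes in red) against the edgeR log2 fold change of LIN28A- over LIN28A+ in cKO animals (y axis, not used). All 150 red points lie above 0 on the y axis, between 0.42 and 2.67, and the other probes centre on 0.

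The size of the segment difference varied between animals. The median log2 ratio of the members was 1.32 in cKO animal 1 and 0.99 in cKO animal 2, beside the 1.37 and 1.13 of the 2 control animals. In cKO animal 1, 122 members had a ratio above 1 (1.20% of all probes did), and in cKO animal 2, 73 members (0.481% of all probes did). The lowest member ratio was 0.57 in animal 1 and 0.23 in animal 2, so that all 150 were above 0 in both. With cKO animal 1 or 2 left out of a fit of all 8 P21 sums, 134 and 142 members were called higher. The lone cKO animal is then assumed to vary like the others, and the spread comes from the control sums that the choice used, so this is no independent check.

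Between genotypes at P21 the members' median level was below that of controls in both segments of cKO, which is given without a test since the choice used the control libraries. In LIN28A- segments the share of counts averaged 3.26% ± 0.82 in controls and 2.50% ± 0.41 in cKO (SD, n = 2 animals each), and the sections overlapped. The median log2 ratio of cKO over control was -0.37 over the members and 0.05 over all probes, with 146 members below 0 and 4 above. The lowest was RTS0067559 at -0.84 and the highest RTS0060923 at 0.15. Both cKO animals were below both controls for 70 members, or 46.7%, against 8.17% of all probes. A ranking on high control LIN28A- values favours such an order, and nothing is read from it.

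In LIN28A+ segments the share averaged 1.20% ± 0.16 in controls and 0.964% ± 0.028 in cKO (SD, n = 2 animals each), and the sections did overlap. The median log2 ratio of cKO over control was -0.25 over the members and 0.02 over all probes, with 129 members below 0 and 21 above. Both cKO animals were below both controls for 77 members, or 51.3%, against 11.7% of all probes, and above both for 3. These control libraries were also used by the choice, whose ratio favours low values in them, unlike in LIN28A- segments. Nothing is read from the count. RTS0067559 had 194 to 488 CPM in the LIN28A+ sections of controls and 115 to 193 CPM in those of cKO, so that the groups did not overlap, though their nearest values were 193 and 194 CPM. RTS0068362 had 161 to 481 CPM in controls and 154 to 393 CPM in cKO, and its groups overlapped. In segments of many cells, fewer cells of a type and less RNA per cell cannot be told apart.

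**Figure D3:**
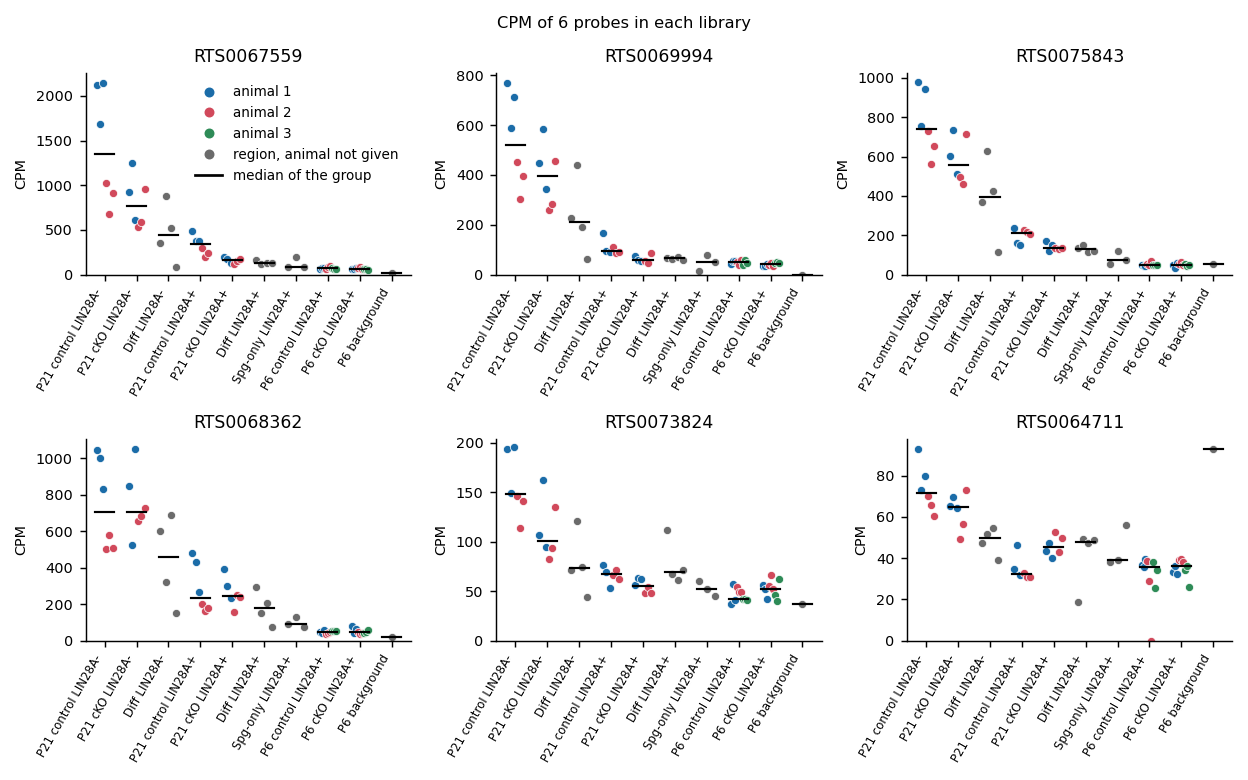
CPM of 6 probes (one panel each, linear axis from 0) in every library by group; points are libraries coloured by animal and bars are group medians. RTS0067559, RTS0069994 and RTS0075843 are high in LIN28A- libraries apart from Diff region 4, and RTS0064711 has 60.3 to 93.1 CPM in LIN28A- and 30.7 to 46.5 CPM in LIN28A+ control sections.

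In the LIN28A- segments of Diff tubules the 150 probes were again mostly higher than in the LIN28A+ segments of the same region number, but the 4 regions differed. The same number in both segments was read as 1 region, which the labels do not state. The share of counts in LIN28A- was 1.56%, 2.56%, 1.73% and 0.890% in regions 1 to 4, with 95% Wilson intervals, which cover counting error only, of 1.53% to 1.59%, 2.50% to 2.63%, 1.69% to 1.78% and 0.861% to 0.920%. In LIN28A+ it was 0.905%, 0.878%, 0.923% and 0.890%, with intervals between 0.844% and 0.964%. Region 2 stood highest and was the library with the fewest counts of the 4 (231410), and in region 4 the segments did not differ in share (1.00-fold).

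In edgeR's test with the region as a block, 35 of 150 members were called higher and 0 lower, where 0.24% of the 18735 probes tested were called higher, 45 in all. The median log2 fold change of the members was 0.77, or 1.71-fold, against -0.01 over all probes, and 149 of the 150 had a value above 0. At an unadjusted p of 0.05, 111 members were higher, or 74.0%, against 3.45% of all probes tested. There were 2 cKO animals at P21, so regions of the same animal are among the 4 and these p-values are too small. The count rested on region 2. Without it 1 member was called, without region 4 67, without region 1 19 and without region 3 13. DESeq2 called 4 of the 65 members to which it gave an adjusted p.

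RTS0067559 had 355, 882, 521 and 82.9 CPM in the LIN28A- segments of regions 1 to 4 and 168, 120, 132 and 131 CPM in the LIN28A+ segments. It was higher in LIN28A- in regions 1 to 3 and lower in region 4, and its log2 fold change was 1.47 (SE 0.24, edgeR adjusted p = 3.66e-05). RTS0069994 had 226, 441, 192 and 62.2 CPM in LIN28A- and 68.3, 63.6, 70.8 and 60.0 CPM in LIN28A+, a log2 fold change of 1.66 (SE 0.26, edgeR adjusted p = 1.79e-05). RTS0075843 had 368, 627, 425 and 114 CPM against 137, 148, 113 and 120 CPM, a log2 fold change of 1.41 (SE 0.22, edgeR adjusted p = 1.79e-05). All 3 were called with the 4 regions, and none of them by DESeq2, where the log2 fold changes of RTS0067559, RTS0069994 and RTS0075843 were 1.35, 1.52 and 1.36, or without region 2, where they were 0.92, 1.14 and 1.14.

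RTS0073824 was the 1 member with a fitted value below 0. It had 71.8, 121, 74.0 and 44.0 CPM in the LIN28A- segments of Diff regions 1 to 4 and 112, 67.1, 61.3 and 71.3 CPM in the LIN28A+ segments. It was lower in LIN28A- in regions 1 and 4 and higher in regions 2 and 3, so that the value of -0.05 (SE 0.26, edgeR adjusted p = 0.992) gave no direction. In cKO sections the same probe was 1.05 higher in LIN28A- on the log2 scale (SE 0.15, edgeR adjusted p = 1.13e-07).

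Per region, the median log2 ratio of LIN28A- over LIN28A+ over the members was 0.74, 1.35, 0.74 and 0.04. A ratio above 1 was reached by 48, 117, 50 and 3 members, where 6.78%, 5.13%, 5.61% and 3.56% of all probes reached it. Region 2 thus lay in the range of the cKO and control animals, regions 1 and 3 lower, and region 4 at the level of all probes (0.01). Among LIN28A- segments, region 2 held the highest CPM of the 4 for 131 members, and region 4 the lowest for 137. Whether region 4 held other cells than the other regions was not tested, since no probe could be tied to a marker.

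**Figure D4:**
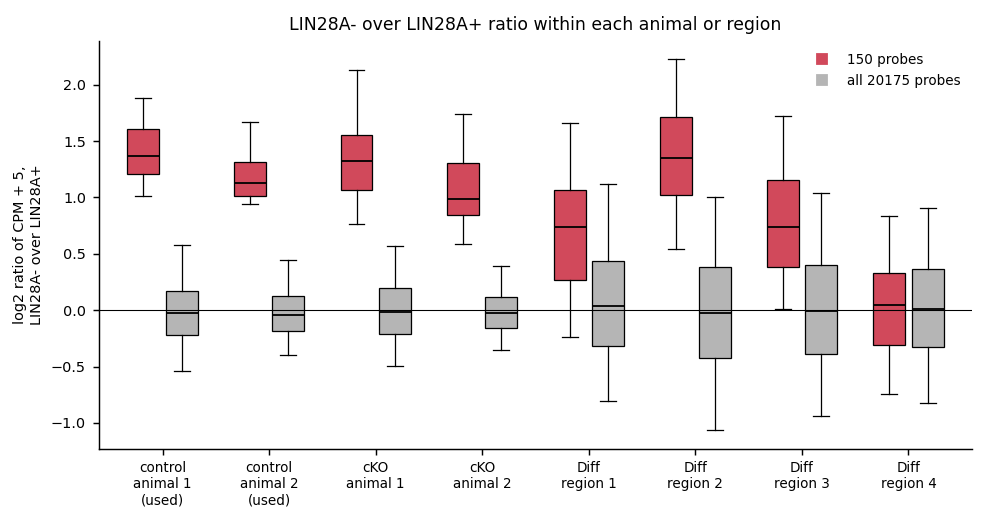
Log2 ratio of CPM + 5, LIN28A- over LIN28A+, within each P21 animal and Diff region, for the 150 probes (red) and all probes (grey); boxes are quartiles with the median, and whiskers run from the 5th to the 95th percentile. The red medians are 0.99 to 1.37 in the animals, 1.35 in Diff region 2, 0.74 in regions 1 and 3, and 0.04 in region 4, where red and grey overlap.

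Across the 12 LIN28A- sections of control and cKO testes the 150 probes rose and fell together. In a principal component analysis of log2(CPM + 5), centred per probe, the first component held 82.5% of the variance, and all 150 probes had the same sign on it. Pairs of probes had a median r of 0.87 (5th to 95th percentile 0.39 to 0.96) over these sections, which share animals and depth, and the correlations are a description. The choice used the control sections among them, and no values of other probes were set beside these. Nothing particular to the members is therefore read from them. The first component was highest in control sections 1.3 and 1.1, with shares of 4.10% and 4.11%, and lowest in cKO sections 2.1 and 2.2, with 1.94% and 2.00%.

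A second component held 11.1% of the variance and split the probes into 75 and 75. It set control sections 2.1 and 2.3 at one end and cKO section 1.3 at the other. The probes at its ends were named after their values were seen. RTS0061003, at the positive end, had 161, 146 and 214 CPM in the LIN28A- sections of control animal 1, 205, 127 and 179 CPM in control animal 2, and 120, 174 and 68.7 CPM in cKO animal 1. RTS0060923, at the negative end, had 174, 142 and 134 CPM in control animal 1, 68.0, 81.5 and 67.8 CPM in control animal 2, and 159, 127 and 193 CPM in cKO animal 1. In cKO section 1.3 the first probe was thus at its lowest of these sections and the second at its highest. RTS0068362, next to RTS0060923 at the negative end, had 846, 525 and 1052 CPM in cKO animal 1 and 657, 681 and 724 CPM in cKO animal 2. In control animal 1 it had 1046, 998 and 831 CPM and in control animal 2 501, 580 and 507 CPM. The genotypes overlapped, and the animals differed within each.

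The Diff regions showed an order of the same kind for RTS0068362, with 598, 320, 690 and 150 CPM in the LIN28A- segments of regions 1 to 4, where region 2 was below regions 1 and 3. This order was found for 5 members, and region 2 was not the highest for 19. The score on the second component was set beside each probe's log2 ratio of Diff region 2 over the mean of regions 1 and 3. Over the 150 probes the Spearman rho was 0.37 and the Pearson r 0.44, across probes in 3 regions, so no p is given. The ratio leaves out region 4 and follows the order of RTS0068362, a probe from the negative end of the component. The component also used control sections that the choice used, so this is no independent check.

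**Figure D5:**
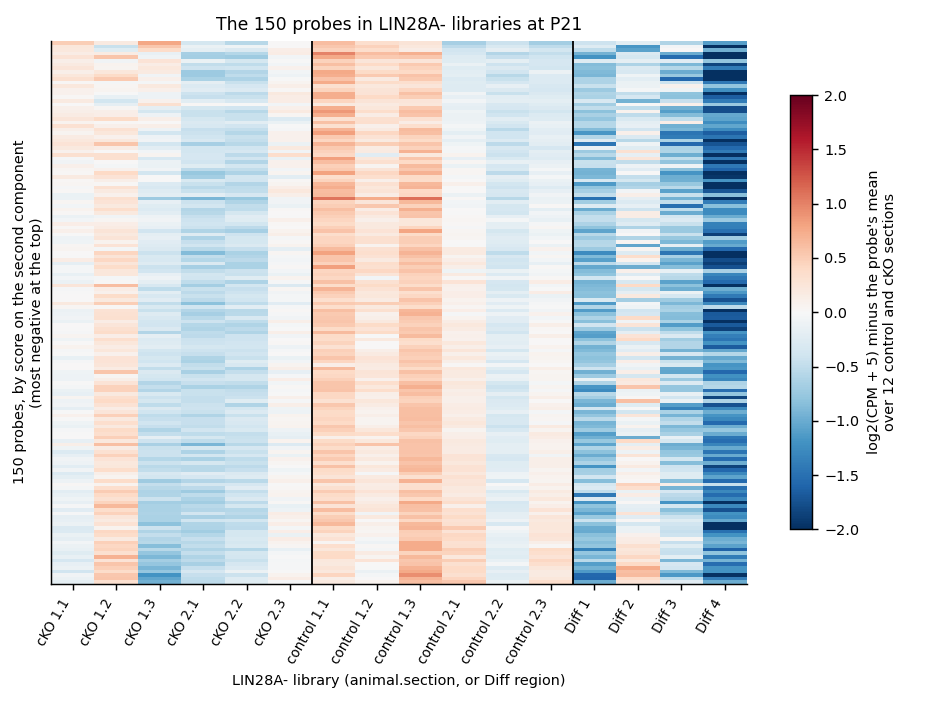
The 150 probes (rows, ordered by score on the second component) in the LIN28A- libraries of cKO, control and Diff regions (columns); colour is log2(CPM + 5) minus the probe's mean over the 12 control and cKO sections, from -2 to 2. Columns differ as a whole, with control animal 1 high and Diff region 4 low, and cKO section 1.3 runs from higher at the top to lower at the bottom.

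In LIN28A+ segments of cKO testes no member was called between Spg-only and Diff tubules. The share of counts was 0.810%, 0.971% and 0.835% in the 3 Spg-only regions and 0.878% to 0.923% in the 4 Diff regions, and the groups overlapped. In edgeR's test 0 members were called, where 0.0697% of the 5740 probes that passed the filter on low counts were called, and 85 of the 150 passed it. With no filter all 150 were tested and 0 were called, as with DESeq2. At an unadjusted p of 0.05 there were then 9 members, 2 higher and 7 lower in Spg-only tubules, or 6%, against 5.05% of all probes. With the filter there were 9 of the 85, 2 higher and 7 lower, or 10.6%. That is a higher share than the 315 of all 5740 probes tested. The median log2 fold change of the 150 was -0.07 with a median SE of 0.38, so single members had wide intervals at this depth, with a median count of 4 to 9 per Spg-only library. In these libraries 70.7% to 92.0% of the members lay within 2-fold of the median of all probes. Of all probes 72.8% to 91.4% did. With the members near the level of most probes, 0 calls do not show that they were unchanged. Regions share animals here too, so the p-values are too small.

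The 2 members with the smallest p had negative fitted values and were not called. RTS0076339 had 53.1, 39.3 and 50.4 CPM (7, 3 and 9 counts) in Spg-only regions and 112, 109, 142 and 63.8 CPM in Diff regions. The groups did not overlap, and the log2 fold change was -1.07 (SE 0.35, edgeR adjusted p = 0.456). RTS0068362 had 91.0, 131 and 72.7 CPM in Spg-only and 292, 148, 203 and 71.3 CPM in Diff regions, a log2 fold change of -0.87 (SE 0.28, edgeR adjusted p = 0.460), and its groups overlapped. Without Diff region 4 its adjusted p was 0.0381. In the other direction RTS0063393 had 68.3, 144 and 72.7 CPM against 87.0, 24.7, 51.9 and 60.0 CPM (log2 fold change 0.72, SE 0.34, edgeR adjusted p = 0.891), and RTS0063326 had 152, 39.3 and 89.5 CPM against 80.8, 60.0, 33.0 and 82.5 CPM (log2 fold change 0.66, SE 0.31, edgeR adjusted p = 0.891). Both of these overlapped.

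At P6 the 150 probes were at the level of an average probe. Their share was 0.633% to 0.713% in the 9 control libraries and 0.663% to 0.715% in the 9 cKO libraries, below the even share of 0.743%. In the sums per animal 94.0% to 98.0% of them lay within 2-fold of the median of all probes, as did 94.1% to 96.7% of all probes. The background region had a share of 0.691%, from 53821 counts, which lay within the ranges of the P6 control and cKO libraries. Whether the level that most probes share is the floor of the assay was not tested. The values therefore do not show that the members were expressed at P6. RTS0067559 had a median of 66.2 CPM in cKO and 69.9 CPM in control libraries at P6, and RTS0068362 45.8 and 48.9 CPM. P6 libraries were not compared with P21 libraries in a test, because age, slide and plate cannot be told apart.

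Between cKO and control at P6 the test called 0 members and 0% of all 20175 probes with edgeR, and DESeq2 called 0, though it gave an adjusted p to only 6 of the members. At an unadjusted p of 0.05 there were 7 members, 2 higher and 5 lower in cKO, or 4.67%, against 7.66% of all probes. The median log2 fold change was -0.03, with a median SE of 0.12, and the values ran from -0.45 to 0.28. With the members at the level of most probes, 0 calls do not show that they were unchanged. RTS0077042 had 54.7 CPM at the lowest, a median of 68.6 CPM and 87.8 CPM at the highest in the cKO libraries, and 68.1, 96.5 and 126 CPM in the control libraries. Its groups overlapped, with a log2 fold change of -0.45 (SE 0.15, edgeR adjusted p = 0.433). RTS0071492 had a log2 fold change of -0.44 (SE 0.15, edgeR adjusted p = 0.439), and RTS0063994 (0.28, SE 0.12, edgeR adjusted p = 0.567) and RTS0079370 (0.25, SE 0.11, edgeR adjusted p = 0.596) led in the other direction. Without control animal 3, RTS0071492 reached an adjusted p of 0.0292, and no other member was called in any fit with 1 animal left out.

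Read across all groups, the members' median CPM in the sums fell from 145 to 189 in control LIN28A- segments over 116 to 144 in cKO LIN28A- segments and 54.4 to 143 in Diff LIN28A- segments to 62.9 to 70.1 in control LIN28A+, 55.0 to 56.5 in cKO LIN28A+, 52.5 to 56.6 in Diff LIN28A+, 50.4 to 53.1 in Spg-only and 42.5 to 45.1 at P6. The choice favoured high values in control LIN28A- segments, so their place at the top is not a result. The median of all probes was 36.0 to 45.5 CPM over these sums. By library, each group overlapped with the next in this order in its share of counts, apart from Spg-only and P6 libraries, which lay on different slides and plates.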

How the data were processed

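GeoMx WTA libraries were analysed from 54 captured segments in 10 groups, assigned from the sample labels. The number before the dot in a label was read as the animal and the number after it as the section. The authors demultiplexed the reads and removed duplicates, by their molecular identifiers, in the GeoMx NGS pipeline (version 2.3.3.10, per the file headers), which gave the deposited count per probe, without normalization or filter. Probes not listed in a library were set to 0. R 4.3.0 is named in the submitters' processing notes. The readout tags of the probes were taken from the deposited configuration files. The run summaries were not used.

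Members, comparisons and alternatives were chosen with earlier results of these data known. Counts were summed per animal (P6, control and cKO) or taken per region (Spg-only, Diff). CPM is relative to 1e6 counts of a library or sum. Log2 ratios used a pseudocount of 5 CPM. Tests across all probes were edgeR's quasi-likelihood test (edgeR 4.0.16, R 4.3.3) with TMM factors, filterByExpr (minimum count 10) and Benjamini-Hochberg adjustment at 0.05, and SEs are those implied by its F statistic. The P21 cKO contrast had the animal as a block, because both segments came from the same animals. The Diff contrast had the region as a block, with the same number in both segments read as 1 region, which the labels do not state. For the 4 Diff numbers, deviations of the LIN28A+ and LIN28A- libraries of the same number correlated at -0.0020 to 0.027. The highest correlations with another number were -0.0037 to 0.0105, and number 2 correlated more with another number. These values do not settle the pairing. Alternatives were DESeq2 (1.42.0), upper-quartile factors, no filter, other blocks, each animal or region left out, and other settings of the ranking. The code was tested on simulated counts.

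The named probes are the first 2 by rank, the 2 on either side of the limit, and in each of the 4 tested comparisons up to 2 members with the smallest p in each direction. RTS0064711, RTS0060923, RTS0061003 and uses of a named probe in other comparisons were chosen after their values were seen. Lists of marker genes and pathways were not applied, since no identifier could be tied to a gene. Total counts ranged from 53821 to 7085244 per library, and counting error sets a lower limit to the error of each value. Python 3.11.15, numpy 2.4.6, pandas 2.3.3, scipy 1.17.1 and matplotlib 3.10.9 were used.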

Additional observations from a re-analysis of the deposited data

Results flagged for a closer look

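Each group of 4 to 10 libraries was searched for a library far from the others, in the share of counts on the 150 probes and in the CPM of the named probes. Of 160 such groups 15 held one, where chance flags about 1 in 20 groups (8 of 160), and the named probes are correlated. The causes were not tested.

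In LIN28A+ libraries of P21 controls, section 1.1 had the highest share of counts on the 150 probes, 1.42% against 1.17% for the next, and the highest CPM of RTS0069994 (166, next 112) and RTS0065832 (148, next 89.8). In the same group RTS0063994 was highest in section 1.3 (106 CPM, next 63.8) and RTS0064711 in section 1.2 (46.5 CPM, next 34.7). Among the LIN28A- sections of cKO, RTS0063326 was highest in section 1.2 (210 CPM, next 136). These sections belong to animals whose other sections were lower.

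Among the Diff LIN28A- libraries, region 4 was low in RTS0063017 (49.2 CPM, next 89.4), which lay just outside the limit of the ranking, and region 2 was high in RTS0063326 (181 CPM, next 87.7). Among the Diff LIN28A+ libraries, RTS0063017 was high in region 2 (106 CPM, next 52.5) and RTS0064711 low in region 1 (18.6 CPM, from 3 counts).

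The P6 control library of section 2.3 stood apart in 5 probes and was the shallowest of its group, with 102271 counts. RTS0063994 and RTS0064711 had 0 counts (0 CPM) there, RTS0063393 and RTS0060923 had 1 count each (9.78 CPM), and RTS0075843 was the highest of the group with 68.4 CPM from 7 counts.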

How the results depend on the processing

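The 149 members called higher in LIN28A- segments of P21 cKO became 136 with DESeq2 (which gave 142 members an adjusted p). They were 149 with upper-quartile factors, with no filter and with no replicate block. They were also 149 with all 8 P21 sums, which include the control sums that the choice used. The same number was called with each section as its own pair, which counts technical replicates as n. These 2 settings are no independent checks. With 1 cKO animal left out, the members' median log2 fold change was 1.07 or 1.40. The ranking kept 122 to 149 of its 150 probes under other settings, the fewest (122 to 130) when 1 section number was left out, and of the first 75 and the first 300 probes 75 and 291 were called. In Diff tubules the 35 members became 4 with DESeq2 (65 with an adjusted p) and between 1 and 67 with 1 region left out, 43 with upper-quartile factors, 36 with no filter and 26 with no replicate block. The cause of the DESeq2 difference was not tested beyond this. RTS0073824, near 0 in Diff tubules, turned from -0.05 to 0.023 with upper-quartile factors, and ranged from -0.38 to 0.21 with 1 region left out (above 0 without region 1, 0.21, and without region 4, 0.15). At P6 and between Spg-only and Diff tubules 0 members were called in the alternatives (DESeq2 gave 6 members an adjusted p at P6), except for 1 each without control animal 3 (P6) and without Diff region 4, so the range with 1 animal or region left out was 0 to 1. With the replicate block on shared numbers, 0 members were called at P6 and 0 between Spg-only and Diff tubules. These samples share only a number. Same-numbered deviations correlated at 0.02, 0.17 and 0.30 at P6, where animal 1 correlated more with another number (0.11), and at -0.0050 to 0.0077 between Spg-only and Diff tubules. With Diff regions 2 and 3, whose LIN28A+ libraries differed by little more than sampling noise, counted as 1 (chosen after the data were seen), 0 members were called. Without the 10 probes of highest mean CPM in the denominator, the median share moved by more than its spread in 3 groups, to 0.937% in Diff LIN28A+, 0.738% in P6 cKO and 0.732% in P6 control. Depth limited the comparison of Spg-only and Diff tubules, in which 65 members did not pass the filter on low counts, though all 150 were tested with no filter.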
